A study of Bos taurus with 10 samples.

Results

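The comparison set 1 array of adult bovine lung against 1 array of adult bovine spleen. These are 2 of the 10 arrays of a series in which total RNA of cattle (Bos taurus) was read on an expression array built for human genes. Both arrays were chosen by their titles alone. The series title calls the tissues adult, and the single array labels do so for brain. The other arrays served as the background level: 5 further adult tissues with 1 array each (brain, heart, kidney, liver and muscle) and 3 arrays of pooled total RNA from IVF (in vitro fertilization) embryos. The labels give no age, sex, breed or number of animals for the tissues. Each bovine transcript was read by probe sets designed for human genes, so genes carry human symbols here. Where a probe set is dim, a low transcript level and a weak match to the bovine sequence cannot be told apart.

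The lung is a gas exchange organ. Thin alveolar type 1 cells cover most of its surface, alveolar type 2 cells secrete surfactant, and both rest on capillaries in a scaffold rich in collagen and elastin. The spleen filters blood. Its white pulp holds T and B lymphocytes organised by stromal cells and chemokines, and its red pulp holds macrophages that remove old red cells and recycle their iron and haem. Both organs hold blood, vessels, smooth muscle and macrophages.

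Intensities were given by the authors on a linear scale, quantile normalised here across the 10 arrays, and compared as log2(intensity + 70.9). The offset was set from the lower quartile of the deposited intensities, as its median across arrays. It keeps values near 0 from giving unbounded folds, and it understates the difference of dim genes. Differences are lung minus spleen on this scale. A gene was measured if its brighter value of the 2 arrays was above that array's median. Its brightest probe set stood for it, which gave 4274 genes. A gene dim on one side was thus measured through its bright side alone. Counts of calls in the lists and the shares over all genes both carry this limit. With 1 array a side there is no replicate check, so no test was made and no p-value is given. A gene is called higher on one side at a difference of at least 1, which is 2-fold. The only replicate arrays in the series are those of embryos, and the labels do not say whether these are separate pools. Between the first and second embryo arrays 0.884% of the genes measured in that pair were at least 2-fold apart, while embryo array 3 gave 7.97% against the first and 5.74% against the second. Between lung and spleen the share was 11.2%. At 4-fold the embryo pairs gave 0.278%, 0.795% and 0.359%, against 2.43% between lung and spleen. The median deposited intensity was 130.4 on the lung array and 148.7 on the spleen array. For the ACTB control, the 5′ signal divided by the 3′ signal was 0.311 in lung, the lowest of the 10 arrays, and 0.611 in spleen. It was 2.65 in heart and 1.52 in muscle. The GAPDH ratio was 0.376 in lung and 0.471 in spleen, and lower than in lung in brain (0.287), heart (0.328) and liver (0.358). Such ratios are used as a measure of RNA integrity. With human probe sets, RNA integrity and the match to the bovine sequence cannot be told apart in them. Their part in the results was not tested.

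Of the 4274 genes, 295 (6.9%) were at least 2-fold higher in lung and 182 (4.26%) at least 2-fold higher in spleen. At 4-fold, 84 genes (1.97%) were higher in lung and 20 (0.468%) in spleen, and the median difference over all genes was -0.05. Among the 84 genes, lung read highest of the 7 adult arrays for 73, and among the 20, spleen read highest for 19. Over all genes measured, lung read highest for 17.0% and spleen for 21.5%. The 84 and the 20 were picked by a high value in that tissue, which itself favours a top rank. Their ranks therefore cannot be weighed against those of all genes. In 33 genes that were 4-fold higher in lung every other adult array read under 100, and the same held for 12 genes that were 4-fold higher in spleen.

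**Figure D1:**
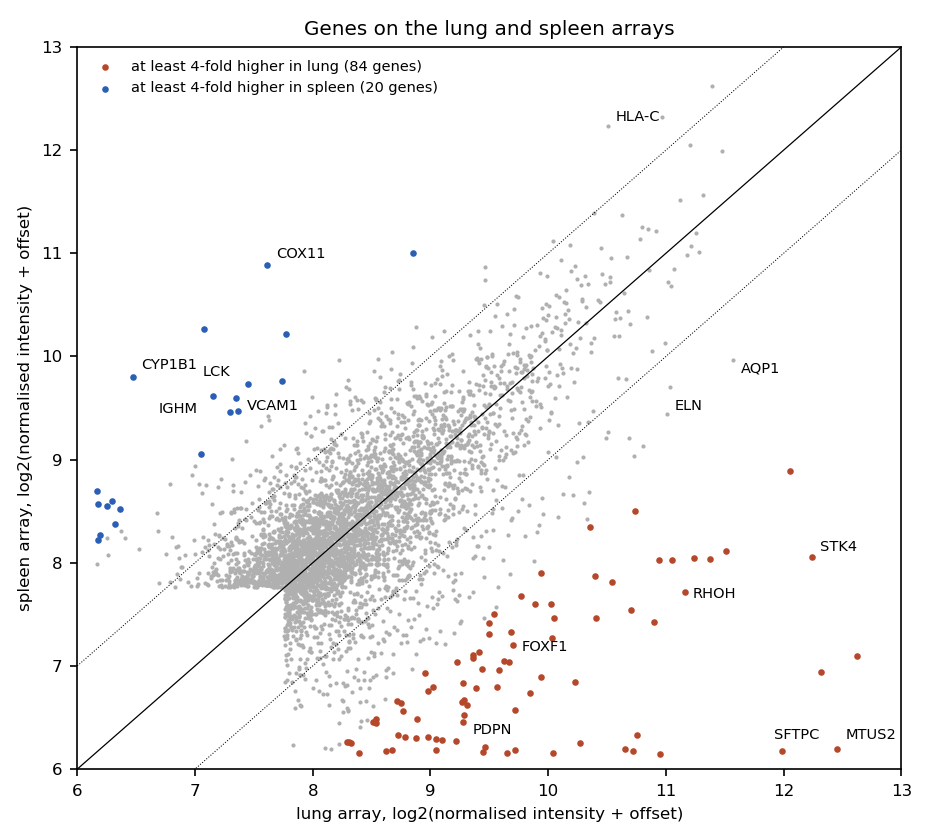
Each point is 1 of 4274 genes, with its lung value on the horizontal axis and its spleen value on the vertical axis, both as log2(normalised intensity + 70.9). The solid line marks equal values and the dotted lines 2-fold; 84 genes lie at least 4-fold to the lung side and 20 at least 4-fold to the spleen side, and the empty lower left corner is where genes under both medians were left out.

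Lung and spleen were the most alike of the 21 pairs of adult arrays. The share of genes at least 2-fold apart was 11.2% for lung and spleen, 18.1% for the next pair, kidney and spleen, and 36.5% for the least alike pair, brain and liver. Across the genes measured, the Spearman correlation was 0.51 for lung and spleen and -0.13 to 0.36 for the other pairs. These correlations run across genes, which are not independent replicates, and genes low on both arrays of a pair were left out. For 697 of all 4274 genes (16.3%), lung and spleen were the 2 highest of the 7 adult arrays.

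**Figure D2:**
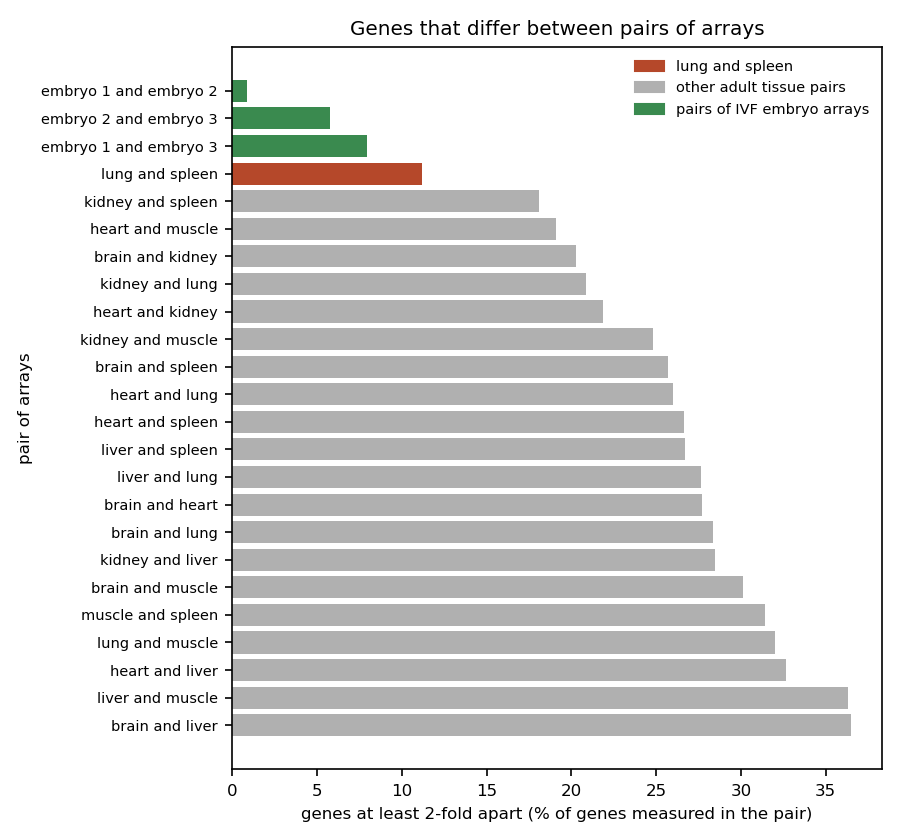
Bars give the share of genes at least 2-fold apart, in percent of the genes measured in each pair, for the 21 pairs of adult arrays and the 3 pairs of IVF embryo arrays. Lung and spleen, at 11.2%, lie between the embryo pairs, at 0.884% to 7.97%, and the other tissue pairs, at 18.1% to 36.5%.

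The marker genes of both organs lay on the side of their label. The rule that names them was set with earlier results of these data known, so this is no check of the labels. By the probe set that stood for it, each read under the array's median in the other organ. Each was thus measured through its brighter organ alone. SFTPC, surfactant protein C, a product of alveolar type 2 cells, read 3989 in lung and 1.35 in spleen. It read 1.01 to 2.20 in the 5 other tissues and 1.61, 1.05 and 1.22 on the embryo arrays, so lung stood apart from all other arrays. The difference was 5.81. Its 4 other probe sets read 3133, 3608, 2187 and 1135 in lung against 1.5, 1.69, 6.95 and 85.7 in spleen. PDPN, podoplanin, a membrane glycoprotein of alveolar type 1 cells, read 553 in lung and 21.1 in spleen, a difference of 2.76. The 5 other tissues read 10.1 to 31.7 and the embryo arrays 848, 754 and 693, so among adult tissues lung alone was bright. The second PDPN probe set did not share this, at 112 in lung and 156 in spleen.

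LCK, a kinase of the T cell receptor pathway, read 104 in lung and 778 in spleen, a difference of -2.28. It read 23.2 to 39.6 in the other 5 tissues, with a median of 34.8, and 111, 141 and 119 on the embryo arrays. Spleen was highest and lung next among adult arrays. VCAM1, an adhesion molecule of splenic stroma and of activated vessels, read 92.4 in lung and 705 in spleen, a difference of -2.25. The 5 other tissues read 30.8 to 73.1, with a median of 66.3, and the embryo arrays 17.3, 27.2 and 35.4. Each of these genes has 1 probe set.

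Genes of the surfactant cells were divided between a few large differences and several small ones. Of 14 listed genes of alveolar type 2 cells 8 were measured. Of these, 3 were at least 2-fold higher in lung and none in spleen, beside 6.9% and 4.26% of all genes. The 3 were SFTPC, SFTPD and MUC1. They read under the array's median in spleen, so they were measured through their lung value alone. The median difference of the 8 was 0.68, against -0.05 over all genes, and 0.0028 with a filter on at least 3 of 10 arrays. In bulk tissue, fewer cells of a type and less RNA per cell cannot be told apart. After SFTPC, SFTPD, a surfactant collectin that binds microbes, read 458 in lung and 7.33 in spleen (2.76), with 0.73 to 29.1 in the other tissues. MUC1, a mucin of epithelial surfaces, read 364 in lung and 23.4 in spleen (2.21), while kidney read 601. LPCAT1, which makes surfactant phosphatidylcholine, stayed under 2-fold at 811 in lung and 391 in spleen (0.93). CTSH, a lysosomal protease that processes surfactant proteins, read 910.5 in lung and 659 in spleen (0.43). The next brightest tissue read 307 for LPCAT1 and 281 for CTSH, so both were brightest in lung and then in spleen. SFTPB, surfactant protein B, did not follow SFTPC. Its single probe set read 195 in lung, 289 in spleen and 163 to 263 in the other tissues, a difference of -0.44.

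Of 11 listed genes of alveolar type 1 cells only 3 were measured. Of these, 2 were at least 2-fold higher in lung, beside 6.9% of all genes. Both read under the array's median in spleen, so they were measured through their lung value alone. Beside PDPN, CAV1, the coat protein of caveolae, read 572 in lung and 133 in spleen (1.66). AGER, the receptor for advanced glycation end products, which is abundant in these cells, read 326 in lung and 143 in spleen (0.89). The other 5 tissues read 283 to 602 for AGER, so lung was not bright for it among adult arrays and spleen was the lowest. Genes of airway cells showed no lung excess. Of 27 listed, 5 were measured, none was 2-fold higher in lung, and CYP2F1, a cytochrome P450, was higher in spleen, at 352 in lung and 797 in spleen (-1.04). Among 34 listed keratins and junction genes, 5 were measured and KRT8, a keratin of simple epithelia, was higher in lung, at 229 in lung and 4.94 in spleen (1.98). CDH1, the epithelial cadherin, read 296 in lung and 303 in spleen and 209 to 401 in the other tissues.

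Transcription factors and signals of lung development had the highest median of the 30 lists with at least 5 genes measured. Of 10 measured (28 listed), 6 were at least 2-fold higher in lung and none in spleen, beside 6.9% and 4.26% of all genes. The median difference was 1.15, and it ran from 0.20 to 1.39 over the alternative settings. FOXF1, a forkhead factor of lung mesenchyme and endothelium, read 763 in lung and 76.6 in spleen (2.50), with 23.2 to 117 in the other tissues. FOXF2, its close relative, read 294 in lung and 16.8 in spleen (2.06). KLF5, a Kruppel-like factor of epithelia, read 158 in lung and 4.43 in spleen (1.60), and 476 to 487 on the embryo arrays. TCF21, a basic helix-loop-helix factor of mesenchyme in lung, kidney and spleen, read 541 in lung and 168 in spleen (1.36), against 1.21 to 73.8 in the other tissues. Spleen was thus second to lung for TCF21. GATA6 read 159 in lung and 25.5 in spleen (1.26), with heart at 409, and HOXB5 665 in lung and 287 in spleen (1.04). FOXF1, FOXF2, KLF5 and GATA6 read under the array's median in spleen, so they were measured through their lung value alone. SOX9, a regulator of airway branching and of cartilage, stayed under 2-fold at 183 in lung and 70.1 in spleen (0.85).

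Several matrix genes were among those higher in lung. Of 31 measured genes of elastic fibres and other matrix (68 listed), 11 were at least 2-fold higher in lung and 1 in spleen, beside 6.9% and 4.26% of all genes, with 12 of the 31 below 0 and a median difference of 0.10. ELN, elastin, read 1988 in lung and 625 in spleen (1.56), with 140 to 307 in the other tissues, so lung was highest and spleen next. Its second probe set read 176 in lung and 174 in spleen. FBN1, fibrillin, the scaffold on which elastin is laid down, read 1088 in lung and 383 in spleen (1.35). LOXL2, an enzyme that cross-links collagen and elastin, read 337 in lung, 2.07 in spleen and 2.38 to 3.33 in the other tissues (2.48), while its other probe set read 54.0 in lung and 80.4 in spleen. DCN, decorin, a proteoglycan on collagen fibrils, read 1219 in lung and 273 in spleen (1.91). A further DCN probe set read 145 in lung and 205 in spleen, and 2 others read 346 and 690 in lung against 71.1 and 102 in spleen. THBS1, a matricellular glycoprotein, read 748 in lung and 167 in spleen (1.78), although its second measured probe set read 205 and 167. LAMA2, the laminin chain of muscle basement membrane, was the gene higher in spleen, at 131 in lung and 455 in spleen (-1.39), with heart at 1177.

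None of 11 measured collagens reached 2-fold. COL1A2 read 952 in lung and 468 in spleen (0.92), and COL3A1 2035 in lung and 1575 in spleen (0.36). The other tissues read 71.6 to 141 for COL1A2 and 318 to 1054 for COL3A1, so both fibrillar collagens were bright in lung and in spleen. The collagen list had a median of 0.32, which turned to -0.26 without x_at and s_at probe sets (those shared between transcripts). Smooth muscle and pericyte genes had a median of 0.60, with 2 of 13 at least 2-fold higher in lung and none in spleen, beside 6.9% and 4.26% of all genes. RGS5, a regulator of G protein signalling in pericytes, read 1718 in lung and 490 in spleen (1.67), and MYH11, smooth muscle myosin, 1003 in lung and 449 in spleen (1.05). ACTA2, smooth muscle actin, read 1812 in lung and 992 in spleen (0.82). In 8 of these 13 genes lung and spleen were the 2 highest tissues, against 16.3% of all genes. Lung was first in 7 of the 8.

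Vessel genes were split. Of 19 measured endothelial genes (46 listed) 5 were at least 2-fold higher in lung and 1 in spleen, beside 6.9% and 4.26% of all genes, and the median was -0.22. S1PR1, the sphingosine-1-phosphate receptor that maintains vessel barriers and guides lymphocyte exit, read 399 in lung and 68.3 in spleen (1.76). EPAS1, a hypoxia-inducible factor of endothelium, read 889 in lung and 243 in spleen (1.61), and TMEM100, a transmembrane protein of lung endothelium, 465 in lung and 178 in spleen (1.10), with 6.10 to 37.1 in the other tissues. HEG1, a receptor of endothelial junctions, read 1186 in lung and 450 in spleen (1.27), but 187 and 284 by its second probe set. PDE2A, a cyclic nucleotide phosphodiesterase, was higher in spleen, at 257 in lung and 707 in spleen (-1.25), with brain at 1902. Of 3 measured water channels 2 were higher in lung. AQP1, the channel of capillary endothelium, read 2964 in lung and 926 in spleen (1.61), below kidney at 5038. AQP4 read 242 in lung and 25.9 in spleen (1.69), below brain at 1200.4. AQP3, a channel of epithelia, read 193 in lung and 288 in spleen (-0.44), but 398 and 86.8 by its other measured probe set (1.57). AQP1 and AQP4 were the only 2 of 7 measured fluid and ion transport genes past 2-fold, and the vasoactive and lipid mediator list had none of 9, with LTA4H, which makes leukotriene B4, nearest at 241 in lung and 86.6 in spleen (0.98).

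**Figure D3:**
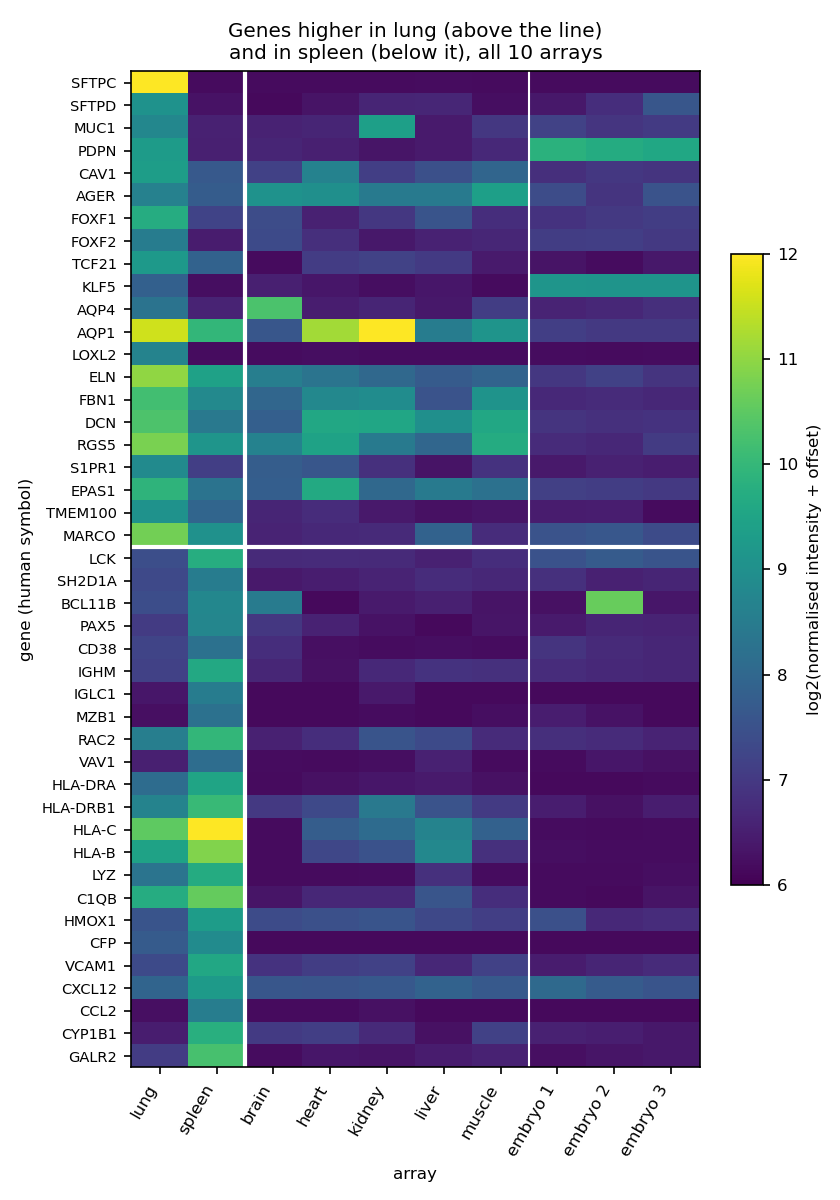
Colour gives log2(normalised intensity + 70.9) for 44 genes named here (rows) on all 10 arrays (columns). Genes higher in lung are above the white line and genes higher in spleen below it. The rows are a selection. The T cell genes RHOH, CD6 and CD8B and the complement gene CFB, all higher in lung, are not among them. All but AGER and C1QB differ at least 2-fold between lung and spleen; SFTPC is bright in lung alone, PDPN and KLF5 also on the embryo arrays, and HLA-C, HLA-B, C1QB and RAC2 in spleen and then lung.

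Several of the largest lung values belonged to genes outside the lung gene lists. MTUS2, a microtubule-associated protein, had the largest difference of all genes, at 5534 in lung and 2.18 in spleen (6.26), and the other 5 tissues read 0 to 27.5. AMT, an enzyme of glycine cleavage, read 6224 in lung and 65.8 in spleen (5.53). ARIH2, a ubiquitin ligase, read 5038 in lung and 52.2 in spleen (5.38), but its second probe set read 89.7 in lung and 113 in spleen. RGS1, a regulator of G protein signalling best known from lymphocytes, read 1902 in lung and was listed at 0 in spleen, and all other arrays read under 1. NDP, the Wnt receptor ligand norrin, read 1614 in lung and 1.25 in spleen (4.55), and ZNF76, a zinc finger protein, 1539 in lung and 2.50 in spleen (4.46), with liver at 402. SLC66A2 read 1658 in lung and 9.81 in spleen (4.42). S100A2, a calcium-binding protein, read 1162 in lung and 5.23 in spleen (4.02), and liver was nearly as bright at 1135. HIGD1B, of the hypoxia-inducible domain family, read 983 in lung and 0.62 in spleen (3.88), with heart at 494. SLC6A2, the noradrenaline transporter, read 772 in lung and 2.07 in spleen (3.53), and its 2 other probe sets read 354 and 113 in lung against 3.32 and 147 in spleen. MTUS2, AMT, RGS1, NDP, ZNF76, SLC66A2, S100A2 and HIGD1B were each read by 1 probe set.

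Another set of bright lung genes was also bright on the muscle array and on the third embryo array, a set picked out after its values were seen. It comprises 27 of the 295 genes at least 2-fold higher in lung (9.15%) and 19 of the 84 past 4-fold (22.6%). In each of them muscle was at least 2-fold above spleen and embryo array 3 at least 2-fold above both other embryo arrays, which holds for 1.12% of all genes measured. STK4, a kinase of the Hippo pathway, is its most extreme member. It read 4762 in lung, 195 in spleen and 1798 in muscle, and 335, 547 and 1788 on the 3 embryo arrays. OFD1, a centriole protein, read 4181 in lung, 404 in spleen and 2420 in muscle, and 731, 603 and 2283 on the embryo arrays. Over the 27 genes the median was 990 in lung, 143 in spleen and 887 in muscle, and 197, 241 and 944 on the embryo arrays. The set includes RHOH, a small GTPase of T cells, at 2217 in lung and 140 in spleen (3.44), and USP18, an interferon-induced protease, at 975 in lung and 83.9 in spleen (2.76). Without the set, 268 genes were 2-fold and 65 were 4-fold higher in lung. What the lung and muscle arrays share with embryo array 3 was not tested.

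**Figure D4:**
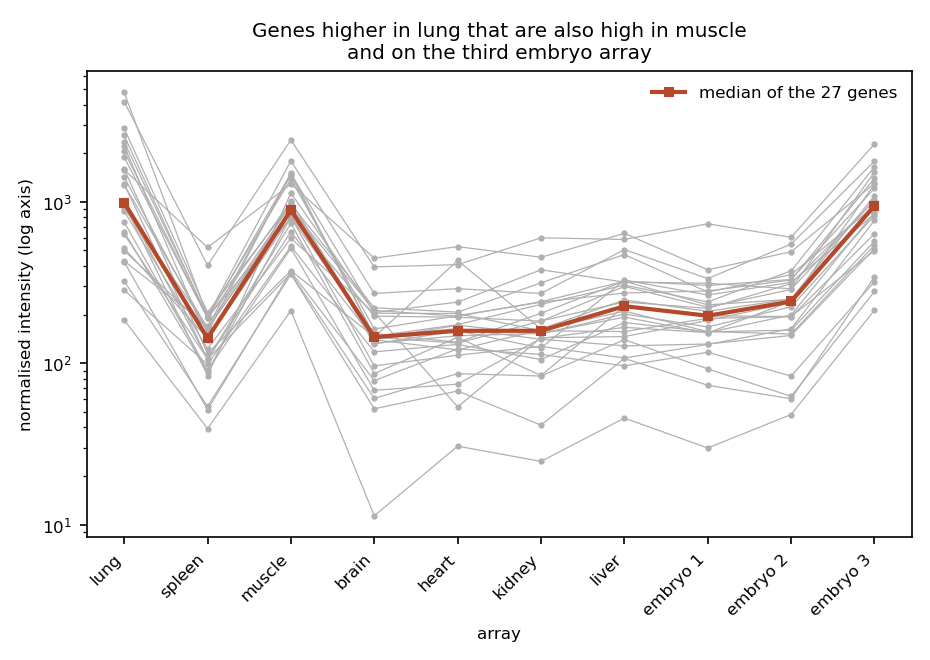
Each grey line is 1 of 27 genes at least 2-fold higher in lung that were also high in muscle and on the third embryo array; the vertical axis is normalised intensity on a log axis and the horizontal axis gives the 10 arrays. The thick line is the median, at 990 in lung, 143 in spleen, 887 in muscle and 944 on the third embryo array.

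T cell genes did not lie on one side. Of 13 measured (40 listed) 3 were at least 2-fold higher in lung and 3 in spleen, beside 6.9% and 4.26% of all genes. The median was -0.21. Beside LCK, the genes higher in spleen were SH2D1A, an adaptor of lymphocyte signalling, at 90.4 in lung and 295 in spleen (-1.18), and BCL11B, a T lineage transcription factor, at 101 in lung and 369 in spleen (-1.36). BCL11B also read 291 in brain and varied from 5.69 to 1497 among the embryo arrays. The genes higher in lung were RHOH, described above, CD6, a T cell surface receptor, and CD8B, the beta chain of CD8. CD6 read 353 in lung and 9.46 in spleen (2.40), while its 2 dimmer probe sets read 91.1 and 68.9 in lung against 18.4 and 45.05 in spleen. CD8B read 242 in lung and 52.8 in spleen (1.34), with heart at 227, and 67.3 and 77.9 by its dimmer probe set. IL2RG, the common chain of several interleukin receptors, read 439 in lung and 274 in spleen (0.56).

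B cell and antibody genes past 2-fold were all higher in spleen. Of 12 measured B cell genes (36 listed) 2 were at least 2-fold higher in spleen and none in lung, beside 4.26% and 6.9% of all genes. Of the 12 differences 10 were below 0, and the median was -0.45, or -0.079 with a filter on at least 3 of 10 arrays. PAX5, the transcription factor of B cell identity, read 60.3 in lung and 364 in spleen (-1.73), with 0.33 to 54.6 in the other tissues. Its second probe set read 161 in lung and 174 in spleen, and that one stood for the gene with arrays scaled to a common median (-0.08). CD38, an ectoenzyme of activated B and plasma cells, read 79.8 in lung and 231 in spleen, just past 2-fold. Of 9 measured antibody and plasma cell genes, 3 were at least 2-fold higher in spleen and none in lung, beside 4.26% and 6.9% of all genes. These 3, and PAX5 and CD38, read under the array's median in lung by the probe sets used. They were thus measured through their spleen value alone. IGHM, the heavy chain of IgM, read 71.3 in lung and 715 in spleen (-2.47), though its second probe set read 200.1 in lung and 113 in spleen. IGLC1, a lambda light chain, read 11.6 in lung and 296 in spleen (-2.15). MZB1, a chaperone of antibody assembly, read 5.25 in lung and 232 in spleen (-1.99), with 0.18 to 3.78 in the other tissues. Immunoglobulin genes form a family of near copies, so the human symbols cannot assign a bovine gene with certainty. IGHG1 and IGHD differed by less than 2-fold (0.20 and 0.37).

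Leukocyte signalling genes were again mixed, with a median of -0.18. Of 12 measured, 2 were at least 2-fold higher in lung and 3 in spleen, beside 6.9% and 4.26% of all genes. RAC2, a small GTPase of blood cells, read 305 in lung and 934 in spleen (-1.42), against 22.5 to 117 in the other tissues. VAV1, an exchange factor downstream of antigen receptors, read 21.3 in lung and 210 in spleen (-1.61). WAS, the actin regulator mutated in Wiskott-Aldrich syndrome, read 89.2 in lung and 362 in spleen (-1.44), but kidney read 450. The dimmer WAS probe set read 97.6 in lung and 103 in spleen. CD44, a hyaluronan receptor, lay to the lung side at 710 in lung and 299 in spleen (1.08), although 2 of its 4 other probe sets were below 0. SH2D2A, a T cell adaptor, was the 1 gene of 7 on the natural killer and cytotoxic list past 2-fold, at 140 in lung and 477 in spleen (-1.38).

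Of the antigen presentation genes, those past 2-fold were all higher in spleen. Of 13 measured MHC class I and processing genes 3 were at least 2-fold higher in spleen and none in lung (median -0.33), and of 8 MHC class II genes 3 were higher in spleen and none in lung (median -0.21), beside 4.26% of all genes for spleen. The others stayed within 2-fold, and 3 of the class I list and 1 of the class II list were above 0, PSME1, a proteasome activator, the most (0.51). HLA-C read 1382 in lung and 4762 in spleen (-1.73), and HLA-B 635 in lung and 1798 in spleen (-1.41). The other tissues read 2.02 to 342 for HLA-C and 1.47 to 372 for HLA-B. HLA-C stayed under 2-fold with the values as deposited (-0.76) and with a common median (-0.58), and its 3 other probe sets were also below 2-fold. HLA-DRA, the alpha chain of a class II molecule, read 208 in lung and 660 in spleen (-1.39), with 0.98 to 15.7 elsewhere among adult tissues, while its second probe set read 187 in lung and 96.7 in spleen. HLA-DRB1, its partner chain, read 337 in lung and 983 in spleen (-1.37). The MHC genes are also a family of near copies, so the human names are uncertain for cattle. In 9 of the 13 class I genes and 4 of the 8 class II genes lung and spleen were the 2 highest tissues, against 16.3% of all genes.

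Macrophage genes showed the same order for many members with small differences. Of 20 measured (39 listed), 18 were below 0, and the median was -0.41. Of the 20, 2 were at least 2-fold higher in spleen and 1 in lung, beside 4.26% and 6.9% of all genes. In 13 of the 20, lung and spleen were the 2 highest tissues, against 16.3% of all genes, and spleen was first in 11. That trait was not particular to macrophage, MHC or smooth muscle genes. It also held for 31 of 50 ribosomal protein genes and 6 of 13 cell division genes. AIF1, a cytoskeletal protein of macrophages, read 613 in lung, 1015 in spleen and 4.47 to 20.3 in the other tissues (-0.67). C1QB, a chain of the first complement component, read 776 in lung and 1471 in spleen (-0.86), with 10.4 to 121 elsewhere. LYZ, lysozyme, read 246 in lung and 754 in spleen (-1.38). HMOX1, the haem oxygenase with which red pulp macrophages break down haem, read 118 in lung and 570 in spleen (-1.76), against 67.9 to 117 in the other tissues. MARCO, a scavenger receptor of alveolar and splenic marginal zone macrophages, and CD163, the haemoglobin scavenger receptor, were the 2 genes above 0. MARCO read 1623 in lung and 454 in spleen (1.69), with 25.3 to 168 elsewhere, and CD163 read 291 in lung and 191 in spleen (0.46). CFP, properdin, which stabilises the complement convertase, read 141 in lung and 403 in spleen (-1.17) and under 1 in every other array. CFB, its partner factor B, lay on the other side, at 234 in lung and 31.0 in spleen (1.58), with liver at 1246. The dimmer CFB probe set read 25.6 in lung and 73.8 in spleen. CFP and CFB were the 2 genes past 2-fold of 9 measured complement genes, whose median was -0.58.

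Of the 6 measured genes of spleen stroma and lymphoid chemokines, VCAM1 and CXCL12 were higher in spleen and none was 2-fold higher in lung. The shares over all genes were 4.26% and 6.9%. The median of the 6 was -0.45. CXCL12, a chemokine that retains leukocytes and progenitors, read 175 in lung and 543 in spleen (-1.32), against 121 to 165 in the other tissues, and 99.3 and 229 by its second probe set (-0.82). MADCAM1, an adhesion molecule of marginal sinus and gut vessels, read 148 in lung and 150 in spleen. CCL2, a chemokine for monocytes, read 5.48 in lung, 305 in spleen and at most 5.82 in the other tissues (-2.30).

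The largest spleen differences also included genes outside the immune lists. CYP1B1, a cytochrome P450 of stromal cells, had the largest, at 18.0 in lung and 818 in spleen (-3.32), with 6.91 to 71.1 elsewhere. Its second probe set pointed the same way, at 32.0 in lung and 204 in spleen (-1.42), but by that probe set liver read 322. COX11, an assembly factor of cytochrome c oxidase, read 125 in lung and 1829 in spleen (-3.28). GALR2, a galanin receptor, read 64.1 in lung and 1159 in spleen (-3.19). LILRB1, an inhibitory leukocyte receptor, read 148 in lung and 1120 in spleen (-2.44), and 141 and 1059 by its second probe set. GPR18, a receptor of lymphoid cells, read 1.30 in lung and 308 in spleen (-2.39). GUSBP11, a pseudogene name whose bovine counterpart was not examined, read 1.15 in lung and 344 in spleen (-2.53), and its dimmer probe set 138 and 113. TRIP10, an adaptor of the actin cytoskeleton, was lower in lung than in any other tissue, at 7.44 in lung, 318 in spleen and up to 576 in heart (-2.31). ITPR2, an intracellular calcium channel, read 86.3 in lung and 636 in spleen (-2.17).

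Detoxification and oxidant defence genes went both ways, with 3 of 18 at least 2-fold higher in lung and 1, CYP1B1, in spleen. The shares over all genes were 6.9% for lung and 4.26% for spleen. GSTA1, a glutathione transferase, read 433 in lung and 8.72 in spleen (2.66), and liver read 433 as well. PRDX6, a peroxiredoxin that also takes part in surfactant phospholipid turnover, read 694 in lung and 53.5 in spleen (2.62), but 113 and 191 by its second probe set. GSTM3, another glutathione transferase, read 629 in lung and 161 in spleen (1.59). Of 7 measured genes of the NF-kappa-B pathway 2 were at least 2-fold higher in lung and none in spleen, 4 were below 0 and the median was -0.05. The 2 were NFKBIA, an inhibitor, at 589 in lung and 194 in spleen (1.31), and MAP3K14, an activating kinase, at 920.1 in lung and 284 in spleen (1.48). Of 15 interferon-induced genes USP18 and ISG15 were higher in lung, ISG15 at 220 in lung and 70.1 in spleen (1.04), and the median was 0.08.

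Cell division genes lay slightly to the spleen side. Of 13 measured (48 listed) 12 were below 0 with a median of -0.33. Only CCNB2, a mitotic cyclin, reached 2-fold, at 301 in lung and 695 in spleen (-1.04). Over all genes, 4.26% were at least 2-fold higher in spleen and 6.9% in lung. MKI67, a marker of cycling cells, read 282 in lung and 547 in spleen (-0.81). Ribosomal protein genes were nearly equal, with a median of -0.09 over 50 genes, none 2-fold higher in lung and 1 in spleen. That gene, RPL37A, read 2620 in lung and 6224 in spleen (-1.23). It turned to 0.18 with arrays scaled to a common median and to -0.0091 with the values as deposited.

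Markers of blood and of other cell types that the tissues could hold gave calls to both sides, beside 6.9% of all genes for lung and 4.26% for spleen. Of 10 erythroid genes, HBB, beta globin, was higher in spleen, at 77.7 in lung and 286 in spleen (-1.27). SELENBP1 and TAL1 were higher in lung (1.75 and 1.16), with lung second to kidney for SELENBP1. The second TAL1 probe set read 115 in lung and 156 in spleen (-0.29). None of 7 neutrophil, 3 platelet, 2 mast cell, 6 cartilage and 1 mesothelial gene reached 2-fold. S100A8 and S100A9, which neutrophils make in abundance, read 228 and 246 in lung and 232 and 200.3 in spleen. The brightest of the other tissues read 14.5 for S100A9. Hepatocyte, striated muscle and kidney tubule markers, of which 3, 2 and 5 were measured, also gave none. Of 5 adipocyte genes LIPE, the hormone-sensitive lipase, and LPL, lipoprotein lipase, were higher in spleen (-1.17 and -1.01), and the list's median was -0.88. The dimmer LPL probe set read 80.5 in lung and 76.1 in spleen. STMN2, a neuronal phosphoprotein and 1 of 3 measured nerve genes, read 6.02 in lung, 199 in spleen and 722 in brain (-1.81). The part of these cell types in the results was not tested.

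**Figure D5:**
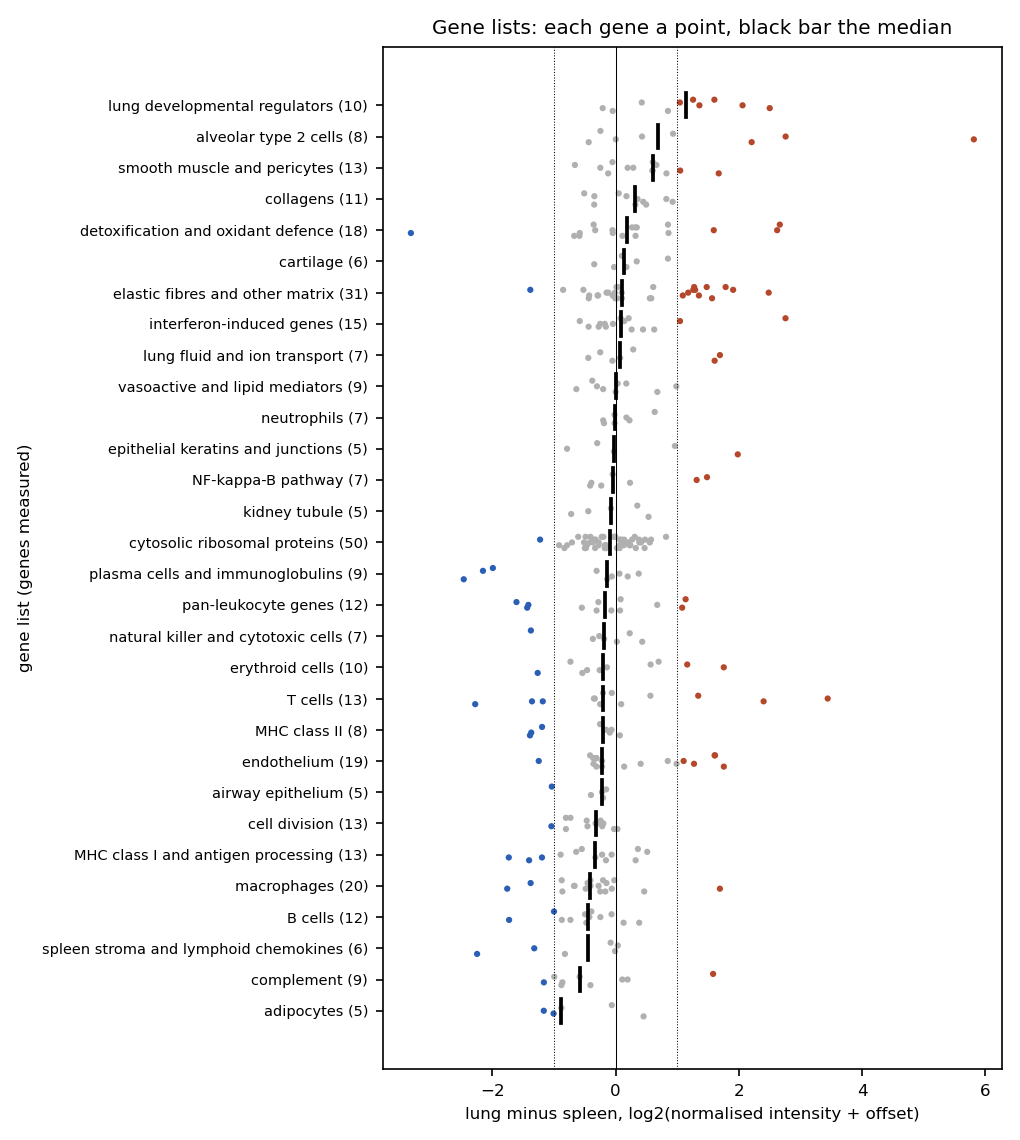
Points are the measured genes of the 30 lists with at least 5 of them, at their lung minus spleen difference in log2(normalised intensity + 70.9) on the horizontal axis, and black bars are list medians. Medians run from -0.88 for adipocyte genes to 1.15 for lung developmental regulators; dotted lines mark 2-fold.

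Where a gene had several measured probe sets, they often disagreed. Of 49 such genes at least 2-fold higher in lung, all other probe sets were also past 2-fold for 14, and at least 1 lay below 0 for 14. Of 35 such genes higher in spleen, these counts were 6 and 7.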

How the data were processed

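Total RNA of 7 adult bovine tissues and 3 IVF embryo pools was hybridised to a human array, per the labels. The values deposited by the authors are linear intensities, 1 for each probe set on each array. The software, background correction and scaling that made them are not stated in the labels or files. Among 22283 probe sets, 12064 were blank on every array and 10219 had values. After leaving out 33 manufacturer's controls, 10186 remained, of which 8847 have 1 human symbol in the platform annotation, 479 several and 860 none, and only those with 1 were named. Of the 4274 genes measured, 4027 symbols (94.2%) are in the bovine RefSeq gene table (ARS-UCD2.0). No build is named for the values, so no coordinates or sequences are given.

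Values were quantile normalised over 10 arrays in Python 3.11.15 with pandas 2.3.3 and tested on simulated data with planted differences. Arrays have no read depth, and their number limits the precision. Named genes were the 12 largest differences on each side, up to 5 of each of 37 gene lists by size of difference, and SFTPC, PDPN, LCK and VCAM1. The lists, members and rules were chosen with earlier results of these data known. Alternatives were values as deposited, a common median, normalisation of fewer arrays, other offsets, filters and fold limits, and the mean of a gene's probe sets. Leaving out the third embryo array with muscle, and leaving out probe sets marked as shared between transcripts (x_at and s_at), were alternatives chosen after seeing the data. Matplotlib 3.10.9 drew the figures. Genes that this rule does not pick (CTSH, HOXB5, FBN1, LAMA2, COL3A1, TMEM100, OFD1, SH2D1A, IL2RG, IGHG1, AIF1, CD163, PSME1, MADCAM1 and S100A8) were chosen after their values were seen.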

Additional observations from a re-analysis of the deposited data

How the results depend on the processing

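The 295 genes higher in lung and 182 in spleen depended most on the offset and the fold limit. An offset 4 times larger gave 112 in lung and 35 in spleen, and one 4 times smaller 407 and 295. At 4-fold there were 84 in lung and 20 in spleen. A filter on at least 3 of 10 arrays, which does not pass genes bright in a single tissue, gave 191 and 130, and dropping x_at and s_at probe sets, which leaves 2472 genes, gave 178 and 105. Without each embryo array in turn the counts were 295 to 296 in lung and 179 to 182 in spleen. The remaining settings moved the counts by less than 1.5 times. Of 89 named genes past 2-fold, 79 kept their direction under every setting that gave a value and 38 also stayed past 2-fold. Reversals came mostly with another probe set standing for the gene: SLC6A2 at -0.33 and PDPN at -0.42 (smaller offset), GUSBP11 at 0.18 (no filter, and 3 of 10 arrays), ARIH2 at -0.19, SLC6A2 at -0.24, IGHM at 0.56, CD44 at -0.073 and PRDX6 at -0.51 (3 of 10 arrays), SLC6A2 at -0.25, DCN at -0.36, CD44 at -0.088 and HLA-DRA at 0.60 (no x_at or s_at). RPL37A was at 0.18 with a common median and at -0.0091 with the values as deposited. For this gene the cause was not tested. The median of the lung developmental regulators ran from 0.20 to 1.39, that of the alveolar type 2 list from 0.0028 to 1.57, that of the B cell list from -0.53 to -0.079, that of the collagens from -0.26 to 0.49, that of the T cell list from -0.28 to 0.30 and that of the endothelial list from -0.27 to 0.63. No paired analysis was possible because each tissue has 1 array, and the embryo array numbers match no tissue.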
